A study of Rattus norvegicus with 16 samples.

Results

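The genes of the synaptic vesicle fusion machinery, 58 in all and chosen by name, were followed through the 4 groups of the study: the synaptotagmins (Syt), syntaxins (Stx), syntaxin-binding proteins (Stxbp), vesicle-associated membrane proteins (Vamp), SNAP proteins (Snap), complexins (Cplx), synapsins (Syn1, Syn2, Syn3), SV2 proteins (Sv2a, Sv2b, Sv2c) and synaptophysin (Syp). They make up 58 of the 17001 gene symbols in the deposited table. Of the 58, 51 passed the filter of a mean of at least 1 FPKM (fragments counted on a transcript, divided by its length and by the size of the library) with a valid estimate in every library. Another 5 had lower means, and 2 (Stxbp5l and Syn3) were left out because some values were marked as failed estimates. Where a symbol had several loci, the one with the highest mean was used.

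The RNA came from frontal cortex of male Sprague-Dawley rats, 11 weeks old at the start, and was poly-A selected and sequenced in 16 libraries. Rats labelled chow ate a chow diet for 7 weeks, and all other rats ate a high fat diet for that time. The HF group had the diet alone, the HF_PBS group also received intraperitoneal PBS for 10 days, and the HF_5AzaD group received 5-AzaD in PBS for 10 days. 5-AzaD (5-aza-2′-deoxycytidine) is a nucleoside that blocks DNA methyltransferases. Each group has 4 libraries, and no chow-fed group was injected. The titles give the letters HFD to the PBS-injected rats whereas the design text uses them for the diet alone. The groups follow the stated treatment, and an exchange of HF and HF_PBS would exchange their comparisons. Nothing says that the 4 libraries of a group are separate animals, so each p-value reflects sample-to-sample spread only, and this spread may be technical. A batch that followed the injections cannot be told apart from them.

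At a nerve terminal, neurotransmitter is stored in vesicles that fuse with the plasma membrane when calcium enters. The fusion is driven by SNARE proteins: synaptobrevin (the Vamp1 and Vamp2 products) on the vesicle zips up with a syntaxin (in neurons the Stx1a product is one) and SNAP-25 (Snap25) on the plasma membrane. Complexins clamp and promote the partly zipped complex, and synaptotagmins such as Syt1 and Syt2 bind calcium and trigger its completion. Other SNAREs of the same families serve the endoplasmic reticulum, Golgi, endosomes and lysosomes in every cell type, so the 58 genes hold both neuronal and general trafficking proteins. Snap91 was caught by its name and encodes AP180, a clathrin adaptor, not a SNARE.

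Relative sequencing depth, read from the steps between low FPKM values, ran from 30.1% to 44.6% of the deepest library in the 12 libraries on high fat diet and from 38.7% to 100% in chow. The absolute depth is unknown. Pearson correlations between libraries over the tested loci ran from 0.862 to 0.984. Several libraries stand apart in markers of neighbouring regions and other cells. The summed level of 9 striatal neuron markers was 1323 FPKM in HF 8 (208 to 251 in HF 5, 6 and 7), and 729 to 1019 in HF_PBS 2, 3 and 4 against 243 in HF_PBS 1. The summed level of 10 oligodendrocyte markers was 12830 and 13787 FPKM in HF_PBS 3 and HF_PBS 4 against 2363 to 7258 in the other 14. All 10 oligodendrocyte markers, and 9 of 10 listed striatal ones, were found in the table and none of these was at 0 in any library. The upper-layer cortical list (7 of 8 genes found) summed to 113 to 241 FPKM and the deep-layer list (10 of 10) to 163 to 482. Cortical markers were thus present in each library, but the lowest upper-layer sums were those of HF_PBS 3 (113 FPKM) and HF_PBS 4 (125). Their deep-layer sums, 203 and 364 FPKM, were not the lowest. HF_PBS 3 also had the highest sums for astrocytes (3474 FPKM), microglia (302) and thalamic neurons (97.9). The count of members that passed in each comparison is therefore also given without HF 8, HF_PBS 3 and HF_PBS 4, an alternative chosen after seeing the data. It stays at 0 without them for the 2 comparisons in which no member passed. Counts over several comparisons, counts by role and counts of groups that do not overlap are given with all libraries only.

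Snap25, the plasma membrane SNARE of neurons, had the highest level of the 58 genes, at 2401 ± 381 FPKM in chow (SD, n = 4). Its values were 2755, 2375, 2595 and 1880.0 in chow, 1653, 1608, 1937 and 1039.6 in HF, 2538, 1645, 770.2 and 1393 in HF_PBS and 2817, 1062, 2606 and 1299.7 in HF_5AzaD. The 3 groups on high fat diet each reached below the chow range and differed widely within themselves, and no comparison passed the test.

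Syp, an abundant membrane protein of the vesicle, followed at 1156, 1087, 1135 and 1089.8 FPKM in chow, 1204, 1106, 1019.5 and 918 in HF, 1183, 1020.0, 722 and 1019.6 in HF_PBS and 1274, 939, 1071 and 1169 in HF_5AzaD. The lowest value was that of HF_PBS 3, and the groups overlapped. Vamp2, the main synaptobrevin of the forebrain, was at 754, 646, 642 and 666 FPKM in chow, 890.0, 650.2, 673 and 585 in HF, 764, 652, 488 and 671 in HF_PBS and 727, 644, 622 and 684 in HF_5AzaD. Its 4 group means lay between 644 and 699.7 FPKM with overlapping libraries.

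Syt1, the calcium sensor of fast release in most forebrain terminals, was at 356, 363, 383 and 474 FPKM in chow, 426, 548, 302 and 334 in HF, 432, 361, 189.9 and 281 in HF_PBS and 419.8, 261, 311 and 280.4 in HF_5AzaD. Both the highest value (HF 6) and the lowest (HF_PBS 3) came from rats on high fat diet, and the groups overlapped.

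Syn1, which encodes synapsin I and tethers vesicles in the reserve pool, was at 269, 265, 274 and 307 FPKM in chow, 325, 321, 280.2 and 195 in HF, 298, 297, 148 and 219.8 in HF_PBS and 315, 235, 294 and 229.6 in HF_5AzaD. Its lowest values were in HF_PBS 3 and HF 8. Stx1a, a plasma membrane syntaxin of nerve terminals, was at 192, 203, 198 and 207 FPKM in chow, 211, 224, 217 and 113 in HF, 156, 154, 55.7 and 126 in HF_PBS and 195, 98.1, 190.4 and 148 in HF_5AzaD. All 4 HF_PBS libraries lay below all 4 chow libraries, but the difference did not pass (log2 difference -0.81, SE 0.31, adjusted p = 0.0662). HF 8 was far below the other HF libraries. It passed when values were quantile normalised, or when HF_PBS 1 or HF_PBS 2 was left out (adjusted p = 0.0407, 0.0434 and 0.0457). These 6 genes of the core release machinery (Snap25, Syp, Vamp2, Syt1, Syn1 and Stx1a) passed the test in none of the 6 comparisons among the groups. Most loci did not pass either, as 38.2% of all loci passed in at least 1 comparison.

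The other 3 core genes passed in at least 1 comparison. Cplx1 was at 466, 454, 498 and 431 FPKM in chow, 253, 335, 399 and 249 in HF, 311, 241, 204 and 211 in HF_PBS and 335, 177, 401 and 182 in HF_5AzaD. Every library on high fat diet lay below the chow range. Cplx2, the complexin common in excitatory terminals, was at 404, 443, 452 and 441 FPKM in chow, 325, 498, 417 and 356 in HF, 275, 339, 192 and 242 in HF_PBS and 319.8, 433, 382 and 338 in HF_5AzaD. It was low in HF_PBS, with HF_PBS 2 inside the HF range. Sv2a, a vesicle glycoprotein and the target of the drug levetiracetam, was at 129, 121, 125 and 142 FPKM in chow, 129, 134, 109 and 112 in HF, 118, 88.7, 85.5 and 64.8 in HF_PBS and 110.5, 79.0, 101 and 75.5 in HF_5AzaD. HF_PBS 1 and HF_5AzaD 3 were the highest of the injected libraries, and both fell inside the HF range.

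**Figure D1:**
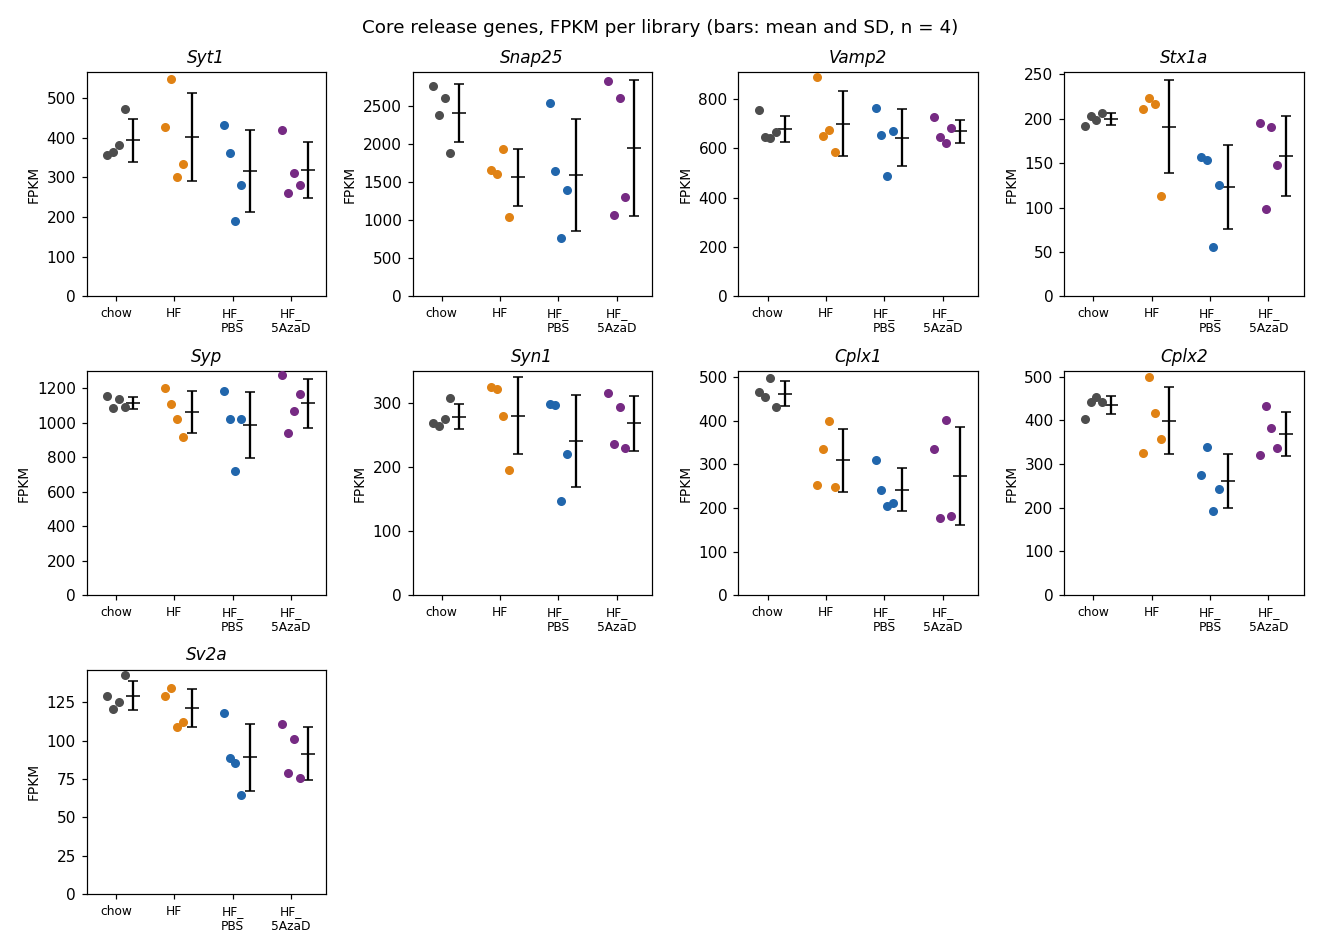
Level in FPKM (vertical axis, linear and from 0) of the 9 core release genes in each of the 16 libraries, by group, with the mean and SD of 4 as bars. Cplx1 is the gene in which all 12 libraries on high fat diet lie below the 4 of chow, and most of the others overlap between groups.

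Across the 51 tested genes single libraries took many of the extremes. HF_PBS 3 held the lowest value of 16 of the 51 genes and HF 6 the highest value of 11. The map of all members shows HF_PBS 3 and HF_PBS 4 as columns with many low synaptic genes beside high Vamp3, Vamp8, Stx2 and Stx4.

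**Figure D2:**
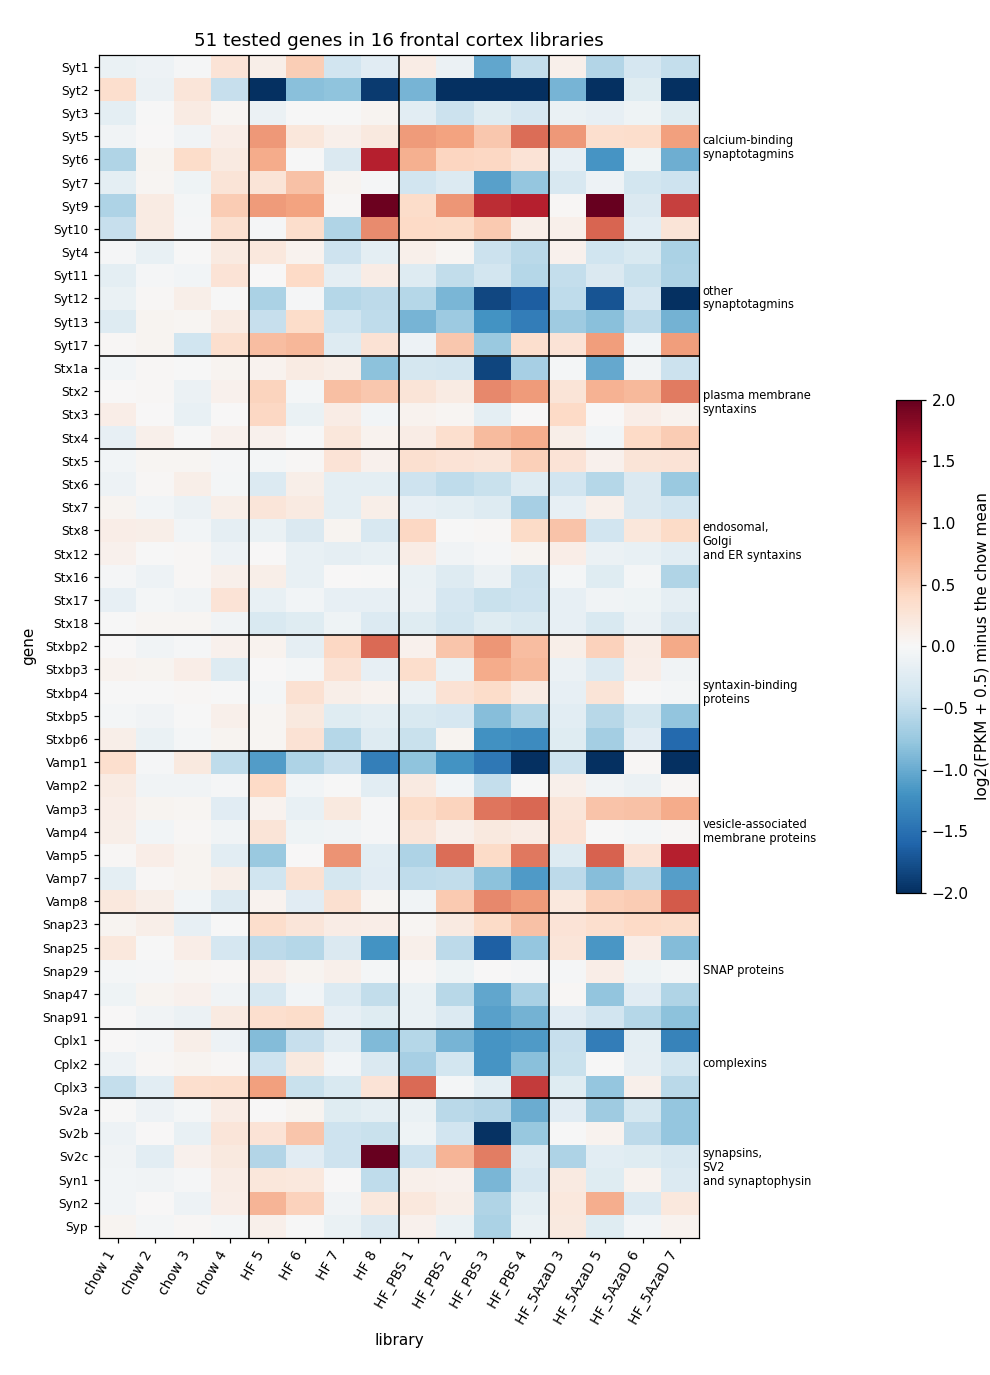
The 51 tested genes (rows, by role) in the 16 libraries (columns, by group), coloured by log2(FPKM + 0.5) minus the mean of the 4 chow libraries, with colours ending at -2 and 2. Syt2, Vamp1 and Cplx1 are blue in most libraries on high fat diet, and HF_PBS 3 has the lowest value of 16 genes.

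Whether the diet alone changed these genes is asked by HF against chow. No member passed the test (adjusted p under 0.05 from limma, Benjamini-Hochberg over all 14824 loci), and neither did any locus (0%). At an unadjusted p under 0.05 there were 2 members of 51 and 1020 of all loci, and a fit without the trend in the prior also gave 0. The median log2 difference was 0.0018 over the members and -0.0075 over all loci. Groups did not overlap for 4 members (7.84% of 51, against 6.95% of all loci). Stx18, Cplx1 and Syt2 were lower (3.97% of all loci) and Snap23 was higher (2.98% of all loci).

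The members with the lowest p gave the following values, none of them past the test. Stx18, an endoplasmic reticulum syntaxin, was at 21.4 ± 1.46 FPKM in HF and 25.1 ± 0.903 in chow (SD, n = 4 each; log2 difference -0.23, SE 0.071, adjusted p = 0.682). Cplx1 was lower in value as well (log2 difference -0.61, SE 0.25, adjusted p = 0.696), at a level 1.52-fold lower in HF. Syt2, the fast calcium sensor of many inhibitory and hindbrain terminals, was at 21.4, 15.5, 20.2 and 12.2 FPKM in chow and 2.88, 9.25, 9.52 and 4.11 in HF, a 2.79-fold lower level (log2 difference -1.48, SE 0.70, adjusted p = 0.716). Its 95% interval ran from -2.97 to 0.0051, so both a large fall and none are within it. On the higher side stood Snap23, the SNAP-25 relative of non-neuronal cells (log2 difference 0.22, SE 0.11, adjusted p = 0.723), Syt5 (log2 difference 0.35, SE 0.18, adjusted p = 0.724) and Stx2, a syntaxin of the plasma membrane (log2 difference 0.38, SE 0.20, adjusted p = 0.725). Syt5 is described here as named in the table, and in RefSeq it also bears the name SytIX.

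A set of 3 genes known in cortex from parvalbumin-containing interneurons, Syt2, Vamp1 and Cplx1, was low in the same libraries. Vamp1, the second synaptobrevin gene, was at 237, 183, 215 and 132 FPKM in chow, 85.8, 122, 136 and 72.2 in HF, 107, 81.3, 69.5 and 36.9 in HF_PBS and 139, 38.7, 190.4 and 38.4 in HF_5AzaD. Syt2 was at 8.62, 3.36, 3.07 and 1.72 FPKM in HF_PBS and 8.69, 0.483, 14.3 and 1.86 in HF_5AzaD. HF_5AzaD 5 and HF_5AzaD 7 were low for all 3 genes, while HF_5AzaD 3 and HF_5AzaD 6 lay near chow for Vamp1 and below it for Cplx1. This split was not particular to the 3 genes. Snap25 was at 2817 and 2606 FPKM in HF_5AzaD 3 and HF_5AzaD 6 against 1062 and 1299.7 in HF_5AzaD 5 and HF_5AzaD 7. Syt12 was at 20.8 and 23.4 against 8.60 and 5.78 in the same libraries, while Vamp2 and Syp did not split so. Pvalb, which encodes parvalbumin, was at 315, 264, 286 and 187 FPKM in chow, 87.2, 149, 190.5 and 81.8 in HF, 256, 143, 159 and 121 in HF_PBS and 294, 31.0, 279 and 91.3 in HF_5AzaD. Its lowest values were in HF_5AzaD 5, HF 8, HF 5 and HF_5AzaD 7. HF_PBS 4, with the lowest Vamp1, had a higher Pvalb than these 4. The summed interneuron list was lowest in HF_5AzaD 5 (428 FPKM) but highest in HF_PBS 4 (927), and in HF_5AzaD 7 (815) it was above the chow range of 654 to 758, so this sum did not follow the 3 genes in every library. In tissue of mixed cells, fewer cells of a type and less RNA per cell cannot be told apart, and the part of Pvalb-expressing cells in these results was not tested.

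**Figure D3:**
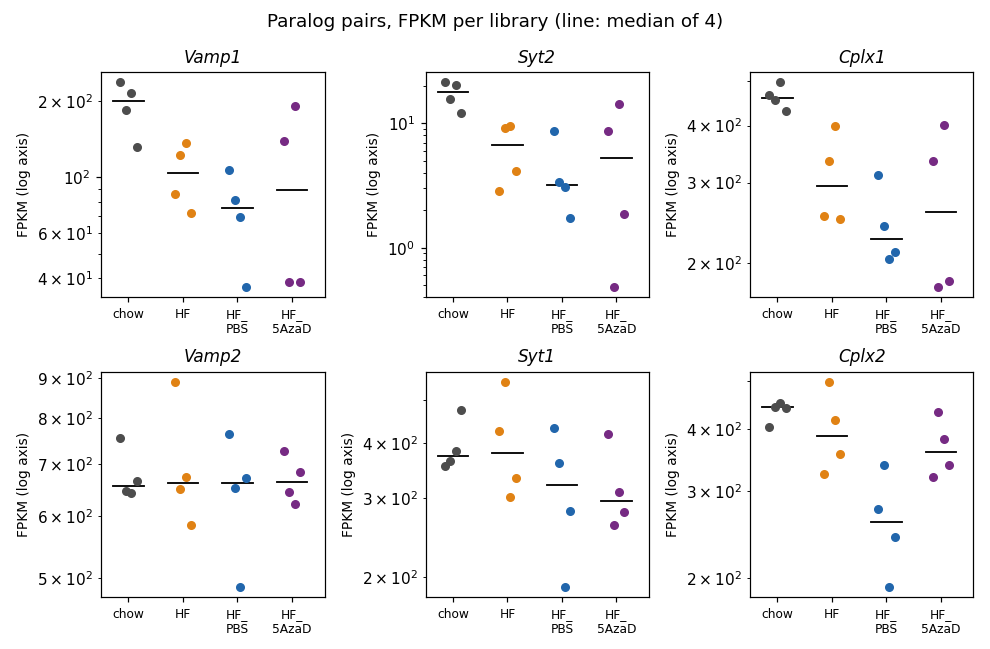
FPKM on log axes (axis ranges differ) of Vamp1, Syt2 and Cplx1 (top) and of their relatives Vamp2, Syt1 and Cplx2 (bottom) in the 16 libraries, by group, with the median of 4 as a line. In the top row the HF medians lie below chow, and the 4 HF_5AzaD libraries split into 2 high and 2 low, whereas Vamp2 runs from 488 to 890.0 FPKM. Some members not shown here, such as Snap25 and Syt12, split in the same way.

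Each of the 3 genes was compared with its relative inside the same library, since such a ratio does not move with the scaling of that library. Vamp1 was 28.3% ± 6.02 of Vamp2 in chow and 15.2% ± 5.06 in HF (SD, n = 4 each). Syt2 was 4.54% ± 1.49 of Syt1 in chow and 1.69% ± 1.06 in HF. Cplx1 was 106% ± 7.89 of Cplx2 in chow and 77.7% ± 12.8 in HF, with no overlap. By a two-sided exact permutation test the 3 unadjusted p-values were 0.0571, 0.0571 and 0.0286, the last being the smallest that 4 against 4 can give. The 7 ratios were tested in 3 comparisons: HF against chow, HF_5AzaD against HF_PBS, and both injected groups against HF. Of these 21 tests 0 passed, with an adjusted p of 0.3 for each of the 3 above. A single ratio compared between 4 and 4 libraries cannot pass after adjustment over 21 tests, even with no overlap. The adjusted result therefore does not decide HF against chow or HF_5AzaD against HF_PBS. Snap23 relative to Snap25 was also apart between HF and chow (0.351% ± 0.0891 against 0.188% ± 0.0377, exact permutation p = 0.0286, adjusted p = 0.3). The other 3 ratios (Syt7 to Syt1, Syn2 to Syn1, Sv2b to Sv2a) had adjusted p-values of 0.3 or more.

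The promoters of these 3 genes and their relatives are shown because the genes were low in the same libraries and because CG dinucleotides are where DNA methyltransferases act. Each line gives the 250 bases before the annotated start, 5′ to 3′, from RefSeq on build GRCr8, with every CG in capitals.
Vamp1, chr4:159698644-159698893, plus strand, 11 CG: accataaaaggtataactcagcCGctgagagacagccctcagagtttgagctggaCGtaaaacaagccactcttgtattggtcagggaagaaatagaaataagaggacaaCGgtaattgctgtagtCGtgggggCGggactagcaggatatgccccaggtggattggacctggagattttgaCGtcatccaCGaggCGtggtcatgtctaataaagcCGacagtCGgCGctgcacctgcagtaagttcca
Vamp2, chr10:54292539-54292788, plus strand, 24 CG: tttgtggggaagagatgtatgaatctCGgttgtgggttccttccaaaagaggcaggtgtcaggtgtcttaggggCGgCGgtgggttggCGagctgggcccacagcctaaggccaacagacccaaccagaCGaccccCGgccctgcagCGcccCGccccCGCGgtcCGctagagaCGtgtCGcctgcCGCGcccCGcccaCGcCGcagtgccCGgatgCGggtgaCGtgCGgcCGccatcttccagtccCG
Syt2, chr13:48736872-48737121, plus strand, 4 CG: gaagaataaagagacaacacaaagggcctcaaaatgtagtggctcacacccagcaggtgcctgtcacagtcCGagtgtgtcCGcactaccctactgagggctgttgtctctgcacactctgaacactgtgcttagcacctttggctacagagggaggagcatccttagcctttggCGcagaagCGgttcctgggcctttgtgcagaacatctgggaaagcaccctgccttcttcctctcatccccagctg
Syt1, chr7:46244214-46244463, minus strand, 8 CG: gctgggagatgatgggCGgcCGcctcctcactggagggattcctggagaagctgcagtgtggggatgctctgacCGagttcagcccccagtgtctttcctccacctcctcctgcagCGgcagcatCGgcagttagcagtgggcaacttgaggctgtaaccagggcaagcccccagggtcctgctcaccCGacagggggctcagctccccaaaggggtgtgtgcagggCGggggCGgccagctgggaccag
Cplx1, chr14:1328823-1329072, plus strand, 21 CG: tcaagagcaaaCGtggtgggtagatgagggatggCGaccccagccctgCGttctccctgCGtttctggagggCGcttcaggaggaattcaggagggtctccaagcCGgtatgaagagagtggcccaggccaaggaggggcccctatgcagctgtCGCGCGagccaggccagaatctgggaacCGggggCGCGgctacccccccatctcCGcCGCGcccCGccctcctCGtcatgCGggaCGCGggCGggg
Cplx2, chr17:10236754-10237003, minus strand, 2 CG: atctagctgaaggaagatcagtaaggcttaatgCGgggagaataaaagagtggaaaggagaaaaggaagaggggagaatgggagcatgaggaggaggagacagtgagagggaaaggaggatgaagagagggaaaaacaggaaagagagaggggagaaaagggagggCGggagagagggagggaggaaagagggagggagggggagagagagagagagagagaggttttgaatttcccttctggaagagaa
The 6 windows differ in CG content, with 11 in Vamp1 and 24 in Vamp2, 4 in Syt2 and 8 in Syt1, and 21 in Cplx1 and 2 in Cplx2. The 3 genes that were low in the same libraries thus hold 11, 4 and 21 CG. Over the 47 members with a RefSeq promoter the median was 16 CG (range 0 to 41), against 17 over 8034 tested genes and 5 over all 33469 entries. Across the 41 tested members with a promoter, CG count and the log2 difference between HF_5AzaD and HF_PBS had a Spearman rho of 0.0042 and a Pearson r of 0.084, given as a description over genes that share the same 8 libraries.

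Motifs were searched on both strands of the same windows. The full cyclic AMP response element TGACGTCA was found in 2 of 47 members, Syn1 and Vamp1 (4.26%, against 1.59% of all entries and 2.99% of tested genes). In Vamp1 it begins 71 bases before the start. The EGR-type motif GCGGGGGCG was found in 7 members (Stxbp5, Syn1, Syn2, Syp, Syt1, Vamp2 and Vamp4), which is 14.9% against 2.45% of all entries and 4.99% of tested genes. The GC box GGGCGG was in 28 members (59.6%, against 59.8% of tested genes) and TATAAA in 3 (6.38%, against 6.10%). No methylation or binding was measured in these files, so a match is a string in the sequence only.

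HF_PBS against HF holds the diet constant and asks what differed between injected and uninjected rats. The synaptotagmin genes Syt7 (1.81-fold), Syt13 (1.75-fold), Syt11 and Syt3 were lower in HF_PBS, and so were the endosomal SNARE genes Vamp7 and Stx7. Vamp3 and Stx5, SNARE genes of recycling endosomes and of the Golgi, were higher. In all, 12 of 51 members passed, 2 higher and 10 lower. That is 23.5% of the members against 23.9% of all loci, so the share called is near the background. The share called lower was 19.6% against 13.2% of all loci, the share called higher 3.92% against 10.7%, and the median log2 difference was -0.13 over the members against 0.013 over all loci.

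Syt7, a slow high-affinity calcium sensor of asynchronous release and vesicle replenishment, fell from 70.5, 88.8, 61.1 and 57.5 FPKM in HF to 44.7, 48.4, 27.3 and 34.2 in HF_PBS (log2 difference -0.85, SE 0.17, adjusted p = 0.00524). The 2 groups did not overlap. Syt13, a synaptotagmin whose C2 domains lack the calcium-binding residues, fell from 53.7, 95.3, 55.7 and 52.0 to 38.7, 44.4, 31.9 and 28.1 (log2 difference -0.81, SE 0.19, adjusted p = 0.00916). HF 6 was far above the other HF libraries, and all 4 HF_PBS libraries lay below all 4 of HF. Vamp3 (cellubrevin), the synaptobrevin relative of recycling endosomes in many cell types, rose from 20.2, 17.2, 22.0 and 18.7 to 24.8, 26.1, 40.7 and 42.8 (log2 difference 0.73, SE 0.17, adjusted p = 0.00921). HF_PBS 3 and HF_PBS 4 were higher than HF_PBS 1 and HF_PBS 2, which were still above HF.

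Among the other members that passed, Snap91 fell by 0.68 on the log2 scale (adjusted p = 0.0324), Cplx2 by 0.62 (adjusted p = 0.0181) and Vamp7, a vesicle SNARE of late endosomes and neurite growth, by 0.57 (adjusted p = 0.0346). Syt11, which does not bind calcium and is known from vesicle recycling, fell by 0.52 (adjusted p = 0.0139) and Stxbp5 (tomosyn), which competes with synaptobrevin for syntaxin, by 0.47 (adjusted p = 0.0289). Sv2a fell by 0.46 (adjusted p = 0.0498), Stx7, an endosomal syntaxin, by 0.40 (adjusted p = 0.0471) and Syt3 by 0.28 (adjusted p = 0.0261). Stx5, the Golgi syntaxin, rose by 0.24 (adjusted p = 0.0452). The remaining 39 members did not pass.

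With any 1 of the 16 libraries left out, 3 calls were kept (Syt7, Syt13 and Vamp3). The count fell to 3 without HF 6, to 3 without HF_PBS 4, to 7 without HF 8 and to 7 without HF_PBS 3. With only the 2 groups fitted it was 2 (Syt7 and Vamp3), and Syt13 had an adjusted p of 0.0533. Without HF 8, HF_PBS 3 and HF_PBS 4 together, 0 members and 7 of all loci passed. The log2 difference was then -0.64 (adjusted p = 0.0768) for Syt7, -0.66 (adjusted p = 0.126) for Syt13, -0.45 (adjusted p = 0.178) for Syt11 and 0.36 (adjusted p = 0.205) for Vamp3. HF_PBS 3 and HF_PBS 4 are also the libraries with the highest oligodendrocyte sums and the lowest upper-layer sums. The part of the cell mix in these differences was not tested.

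**Figure D4:**
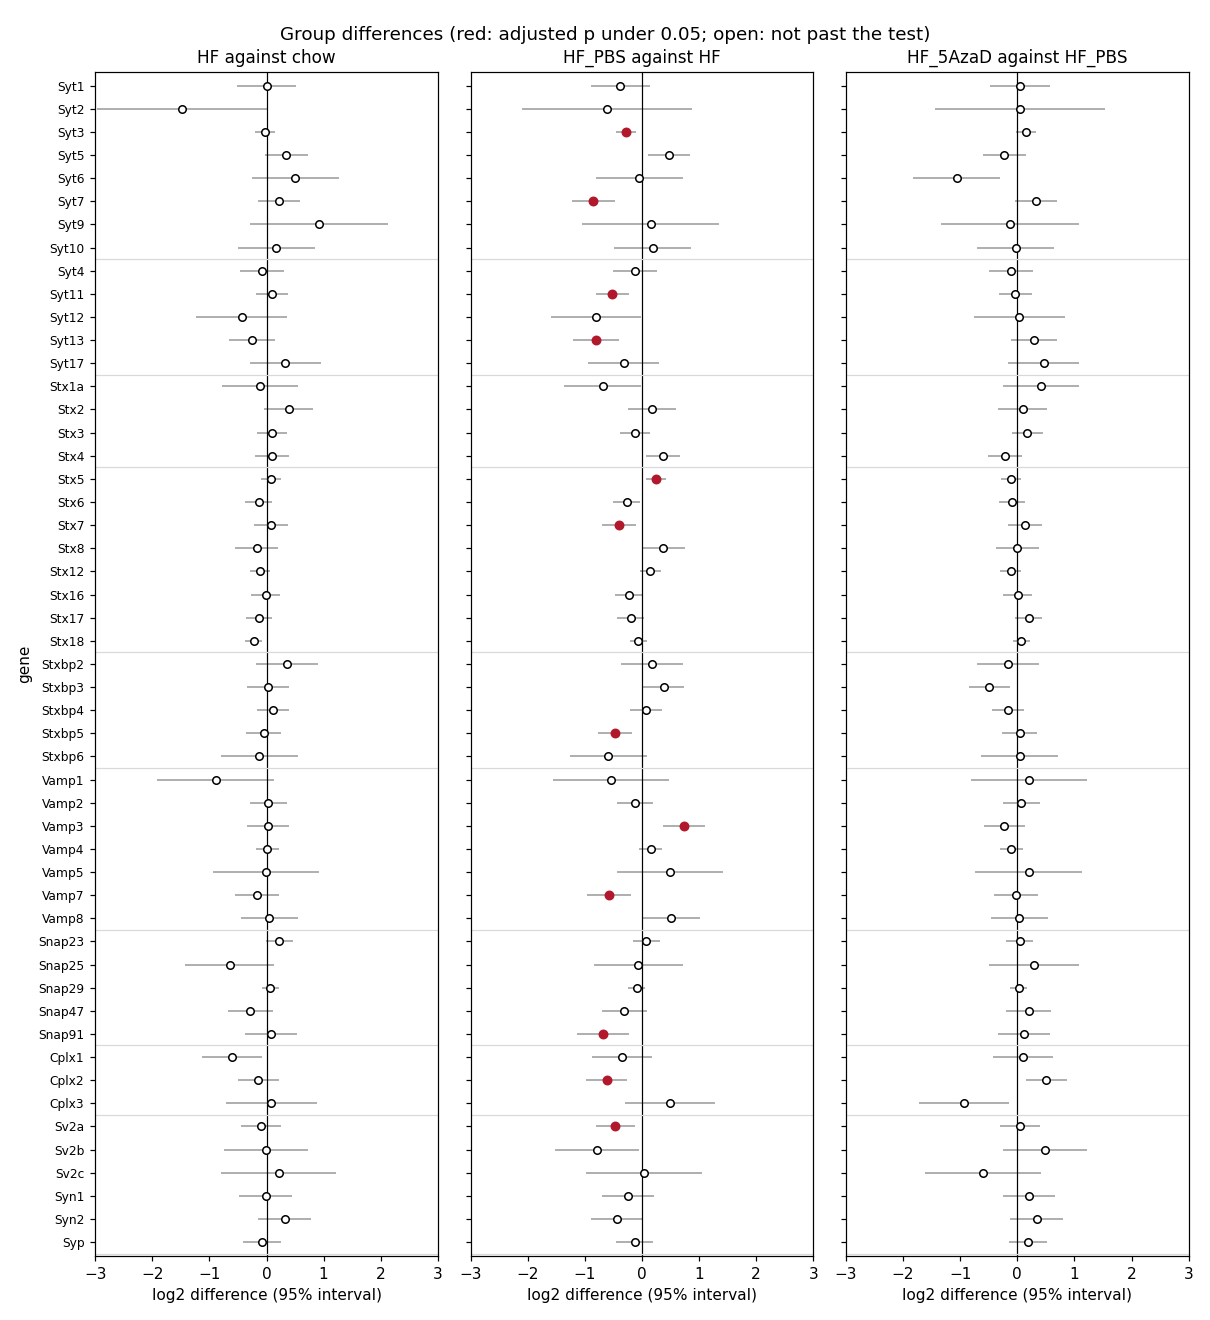
Log2 difference with its 95% interval (horizontal axis) of each of the 51 tested genes, in order of role, for 3 comparisons, named above the panels. Filled red points passed the test, which are 12 genes in the middle panel and none in the outer ones.

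HF_PBS against chow combines the diet and the injections. Here 22 of 51 members passed, 5 higher and 17 lower, or 43.1% against 28.2% of all loci. Lower calls made up 33.3% of the members against 15.7% of all loci, and higher calls 9.80% against 12.4%. The median log2 difference was -0.21 over the members and 0.013 over all loci. This comparison shares the HF_PBS libraries with the one before, so the values are given side by side and their likeness is no separate result.

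Syt2 was the most reduced member, from 17.3 to 4.19 FPKM (log2 difference -2.09, SE 0.70, adjusted p = 0.0371). Vamp1 fell 2.71-fold (log2 difference -1.44, SE 0.48, adjusted p = 0.0366). Syt12, a synaptotagmin phosphorylated by protein kinase A, fell from 26.8, 30.2, 32.0 and 29.5 FPKM in chow to 19.7, 15.5, 8.07 and 9.07 in HF_PBS (log2 difference -1.24, SE 0.37, adjusted p = 0.0245). It was already at 19.0, 29.3, 19.7 and 20.4 in HF and did not pass there. Syt13 fell to 35.8 ± 7.25 from 74.3 ± 9.09 FPKM (SD, n = 4 each; log2 difference -1.06, SE 0.19, adjusted p = 0.00324), and Cplx1 to 242 ± 49.0 from 462 ± 27.9 (log2 difference -0.95, SE 0.25, adjusted p = 0.0134). Thus both complexins of the core list were lower than in chow, Cplx2 by 0.76 on the log2 scale (adjusted p = 0.0067). Vamp7 fell by 0.74 (adjusted p = 0.0104), Syt7 by 0.63 (adjusted p = 0.018), Snap91 by 0.61 (adjusted p = 0.0452) and Snap47 by 0.60 (adjusted p = 0.0287).

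The 5 members that rose were Syt5, Vamp3, Stx2, Stx4 and Stx5. Syt5, a calcium-binding synaptotagmin related to Syt1, rose from 101, 107, 101 and 116 FPKM in chow to 192, 185, 154 and 229 in HF_PBS (log2 difference 0.82, SE 0.18, adjusted p = 0.00591). All 4 HF_PBS libraries were above all chow libraries, and HF was at 194, 124, 114 and 121, with HF 5 inside the HF_PBS range. Vamp3 rose by 0.75 (adjusted p = 0.0074), Stx2 by 0.56 (adjusted p = 0.049), Stx4, a plasma membrane syntaxin found in many cell types, by 0.46 (adjusted p = 0.0252) and Stx5 by 0.33 (adjusted p = 0.0116). In Stx2 and Stx4 the values of HF_PBS 3 and HF_PBS 4 were the highest, at 7.81 and 7.24 FPKM for Stx2 and 49.0 and 52.2 for Stx4. Smaller falls that passed were those of Stxbp5, Sv2a, Syt11, Stx6, Stx17, Syt3 and Stx18, between -0.56 and -0.29.

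Of the 22 calls, 9 were kept with any 1 library left out (Syt13, Syt5, Cplx2, Vamp3, Vamp7, Stx18, Stx5, Cplx1 and Stx6). The count was 9 without HF_PBS 4, 11 without HF_PBS 3, 14 without chow 2, 12 without chow 3 and 13 without chow 4. Without HF 8, HF_PBS 3 and HF_PBS 4 together, 0 members and 3 of all loci passed, and the log2 difference was -0.83 (adjusted p = 0.0766) for Syt13, -0.75 (adjusted p = 0.181) for Cplx1, -0.33 (adjusted p = 0.241) for Syt7, -0.33 (adjusted p = 0.269) for Sv2a and 0.40 (adjusted p = 0.141) for Vamp3. Only HF_PBS 1 and HF_PBS 2 then stand for that group, and HF_PBS 2 is itself high in striatal markers.

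HF_5AzaD against chow gives the same combination with the inhibitor in the injected fluid, in libraries with striatal sums (208 to 361 FPKM) close to those of chow (231 to 380). Other marker sums were higher than in chow in HF_5AzaD 5 and HF_5AzaD 7, at 91.0 and 79.7 FPKM for thalamic neurons (31.7 to 41.4 in chow) and 244 and 267 for microglia (133 to 143 in chow), and their part in the result was not tested. Here 13 of 51 members passed, 4 higher and 9 lower, or 25.5% against 16.3% of all loci. Lower calls were 17.6% of the members against 9.11% of all loci, and higher calls 7.84% against 7.18%, and the median log2 difference was -0.18 over the members and 0.0043 over all loci. Syt12 was the most reduced of the members that passed (log2 difference -1.20, SE 0.37, adjusted p = 0.042), followed by Cplx1 (-0.85, adjusted p = 0.0353), Vamp7 (-0.76, adjusted p = 0.0186) and Syt13 (-0.76, adjusted p = 0.021). The Golgi and endosome syntaxin gene Stx6 fell from 48.5, 53.1, 56.8 and 51.2 FPKM in chow to 39.8, 35.1, 42.9 and 30.9 in HF_5AzaD (log2 difference -0.50, SE 0.11, adjusted p = 0.0138), and the 2 groups did not overlap.

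Sv2a fell by 0.51 on the log2 scale (adjusted p = 0.0453), Stxbp5 by 0.48 (adjusted p = 0.038), Syt11 by 0.45 (adjusted p = 0.035) and Stx18 by 0.22 (adjusted p = 0.0494). Stx2 rose by 0.66 (adjusted p = 0.04), Syt5 by 0.59 (adjusted p = 0.0371), Vamp3 by 0.53 (adjusted p = 0.0482) and Snap23 by 0.34 (adjusted p = 0.048). Syt2 and Vamp1 had log2 differences of -2.05 (adjusted p = 0.0573) and -1.24 (adjusted p = 0.0835) and did not pass. Of the 13 calls, 0 were kept with any 1 library left out. The count fell to 0 without HF_5AzaD 7, to 5 without HF_5AzaD 5, to 8 without HF 5 or HF 8, and to between 1 and 4 without a chow library (4 without chow 1, 2 without chow 2, 1 without chow 3 and 1 without chow 4). With no filter on low values it was 4. Without HF 8, HF_PBS 3 and HF_PBS 4 it was also 13, but none of these libraries belongs to HF_5AzaD or chow. The log2 differences cannot change then, only the spread estimated in the fit, so the equal count is no sign of stability. The genes were not all the same, as Stx18 no longer passed (adjusted p = 0.0590).

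HF_5AzaD against HF gave 3 calls of 51, all lower, or 5.88% against 14.2% of all loci. Lower calls made up 7.64% and higher calls 6.61% of all loci, and the median log2 difference was -0.11 over the members and 0.017 over all loci. The 3 that passed were Vamp7 (log2 difference -0.59, SE 0.18, adjusted p = 0.0432), Syt11 (-0.55, adjusted p = 0.0191) and Stx6 (-0.36, adjusted p = 0.0412). Groups did not overlap for 6 members (11.8% of 51), 1 higher and 5 lower, against 17.7% of all loci (8.97% higher and 8.78% lower). These were the 3 that passed and Syt7, Vamp3 and Syt13, with log2 differences of -0.52 (adjusted p = 0.058), 0.51 (adjusted p = 0.0592) and -0.51 (adjusted p = 0.0797) that did not pass. The count was 6 without HF 8, HF_PBS 3 and HF_PBS 4, where Stx6 had a log2 difference of -0.38 (adjusted p = 0.0634). It was 0 without HF 6 or without HF_5AzaD 7, 1 without HF 8 or without chow 2, 3 or 4, and 5 without HF_PBS 3. With only the 2 groups fitted it was 0, with no filter on low values 1, and after quantile normalisation 6.

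What the inhibitor added to the injection is asked by HF_5AzaD against HF_PBS. No member and no locus passed (0%). At an unadjusted p under 0.05 there were 4 members and 1100 loci, and a fit without the trend in the prior also gave 0. The medians were 0.044 over the members and 0.012 over all loci. Only Syt6 (1.96% of the members) did not overlap between the groups and was lower, against 2.4% of all loci in either direction, 0.938% lower and 1.46% higher. Syt6, a calcium-binding synaptotagmin, was at 9.36, 7.62, 7.46 and 6.72 FPKM in HF_PBS and 4.84, 2.15, 5.18 and 2.54 in HF_5AzaD (log2 difference -1.06, SE 0.36, adjusted p = 0.586). Its values in HF were 9.59, 5.46, 4.43 and 17.1, with the highest in HF 8.

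Of the others with the lowest p, Cplx2 was at 368 ± 50.4 against 262 ± 61.6 FPKM (SD, n = 4 each; log2 difference 0.51, SE 0.17, adjusted p = 0.586), and Syt7 at 47.7 ± 4.87 against 38.7 ± 9.66 (log2 difference 0.33, SE 0.17, adjusted p = 0.726). Stx17, a syntaxin of autophagosomes, had 0.20 (adjusted p = 0.732). Stxbp3, a syntaxin-binding protein of secretion outside neurons, had -0.49 (adjusted p = 0.586) and Cplx3, a complexin of retina and deep cortical neurons, -0.93 (adjusted p = 0.61).

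Over all comparisons, 24 of the 51 members passed at least once (47.1%, against 38.2% of all loci) and 27 in none. This count uses all libraries. Without HF 8, HF_PBS 3 and HF_PBS 4, 0 members passed in HF_PBS against HF and 0 in HF_PBS against chow. Syt11 and Vamp7 were lower in each of the 4 comparisons of an injected with an uninjected group, which share their groups (3.92% of the members, against 4.34% of all loci). All 8 injected libraries lay below all 8 uninjected ones for 3 members, Syt11, Syt13 and Vamp7 (5.88%, against 5.05% of all loci), so both shares are near the background. Syt11 was at 196, 223, 217 and 273 FPKM in chow, 228, 298, 199 and 250.2 in HF, 189, 160.4, 175 and 152 in HF_PBS and 162, 185, 167 and 147 in HF_5AzaD. There was little space between 189 in HF_PBS 1 and 196 in chow 1. Vamp7 was at 33.9, 39.7, 40.3 and 42.3 FPKM in chow, 29.3, 48.2, 30.5 and 33.3 in HF, 27.1, 27.7, 21.9 and 17.4 in HF_PBS and 26.9, 21.4, 26.4 and 17.8 in HF_5AzaD. Stx6, Syt13, Stxbp5 and Sv2a (lower) and Vamp3 (higher) passed in 3 comparisons.

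**Figure D5:**
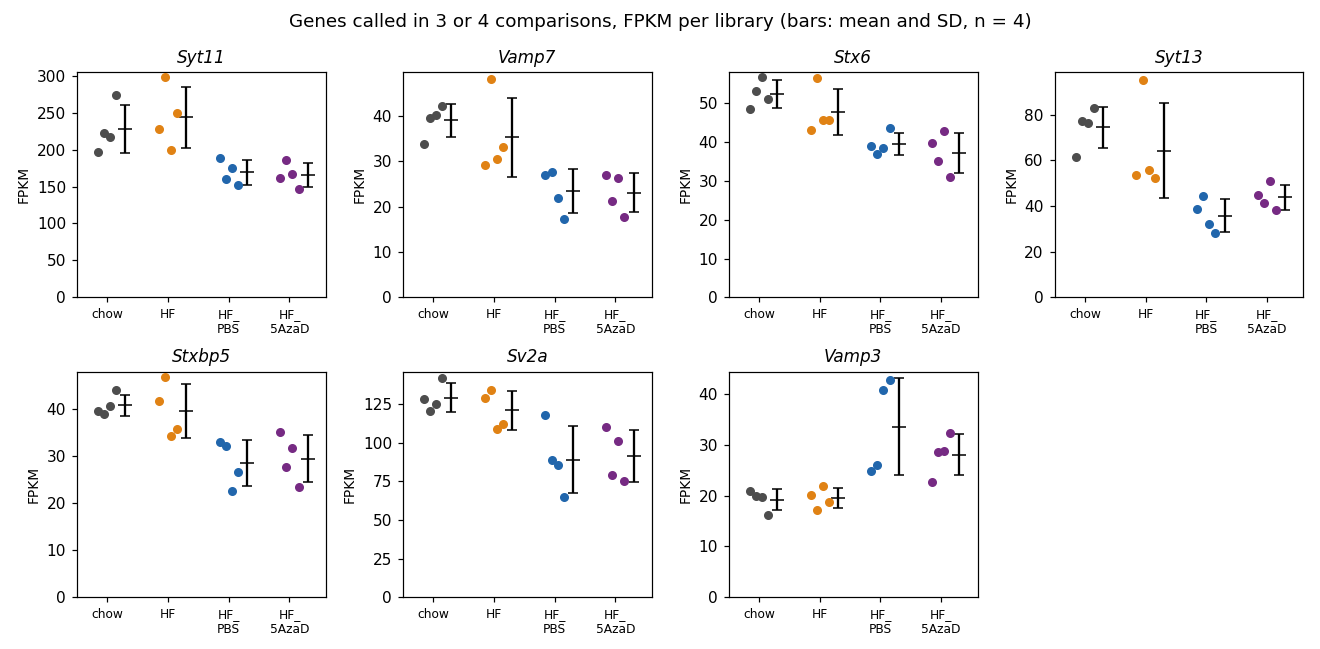
FPKM (vertical axis, linear and from 0) of the 7 genes that passed in 3 or 4 of the 6 comparisons, in each of the 16 libraries, with the mean and SD of 4 as bars. Syt11, Vamp7 and Syt13 are lower in all 8 libraries of injected rats than in all 8 of uninjected rats, and Vamp3 is highest in HF_PBS 3 and HF_PBS 4.

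By role, the 8 calcium-binding synaptotagmins ranged in chow from 1.43 FPKM for Syt9 to 394 for Syt1. Syt3, Syt5, Syt7 and Syt2 passed somewhere, and Syt1, Syt6, Syt9 and Syt10 did not. For this role and those below, the share over all loci that passed in at least 1 comparison was 38.2%. Each role holds few genes, and its share was not tested against that of all loci. Syt9 was highest in HF_5AzaD 5 (11.4 FPKM) and HF 8 (6.76), against 0.704 to 2.13 in chow. Of the other 5 tested synaptotagmins, Syt11, Syt12 and Syt13 passed in at least 1 comparison. Syt4, which is induced by neuronal activity, was at 48.2 to 86.8 FPKM over the 16 libraries and Syt17 at 17.6 to 53.8, and neither passed.

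Among 4 plasma membrane syntaxins, Stx2 and Stx4 passed, and Stx1a and Stx3 did not. Stx3, at 5.44 to 8.59 FPKM, is the syntaxin of ribbon synapses and of postsynaptic receptor delivery. Of the 8 syntaxins of inner membranes, Stx5, Stx6, Stx7, Stx17 and Stx18 passed in at least 1 comparison. Stx8 (14.2 to 28.1 FPKM), Stx12 (55.6 to 71.4) and Stx16 (13.7 to 22.8) passed in none. Of 5 tested syntaxin-binding genes only Stxbp5 passed in any comparison. Stxbp2 (0.730 to 2.53 FPKM) and Stxbp3 (10.8 to 22.4), which serve secretion outside neurons, Stxbp4 (1.50 to 2.39) and Stxbp6 (11.0 to 40.7) did not.

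Among 7 vesicle-associated membrane proteins, Vamp1, Vamp3 and Vamp7 passed. Vamp4, a Golgi and endosome SNARE, stayed at 19.7 to 25.4 FPKM, whereas Vamp8, a SNARE of endosomes and of secretory granules, ranged over 10.9 to 31.8 and Vamp5, known from muscle, over 2.11 to 12.3. The highest Vamp8 and Vamp5 values were both in HF_5AzaD 7, and neither gene passed. In the SNAP group, Snap23, Snap47 and Snap91 passed in at least 1 comparison. Snap29, a SNARE of autophagosome fusion, stayed at 10.3 to 12.1 FPKM.

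Cplx3 stayed at 2.24 to 11.8 FPKM without a call. Syn2 (122 to 309 FPKM), Sv2b (25.3 to 148) and Sv2c (2.43 to 18.5) did not pass either. Sv2c, the SV2 protein of basal ganglia neurons, was at 2.49, 3.35, 2.88 and 18.5 FPKM in HF, with 18.5 in HF 8, and at 2.86, 6.66, 8.61 and 3.20 in HF_PBS. The high Sv2c value stood in the library with the highest striatal sum, where the dopamine receptor gene Drd2 was at 30.7 FPKM against 1.61 to 2.23 in the other HF libraries. The next highest Sv2c values were those of HF_PBS 3 (striatal sum 804 FPKM, Drd2 at 13.7) and HF_PBS 2 (sum 729, Drd2 at 12.4). HF_PBS 4, with the second highest striatal sum (1019 FPKM) and Drd2 at 13.6, had Sv2c at 3.20, below the chow range of 3.37 to 4.61. The part of striatal tissue in the Sv2c values was not tested. Sv2b was lowest in HF_PBS 3, at 25.3 FPKM against 90.8 to 119 in chow.

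The 5 members below the filter were Syt8 (0 to 0.542 FPKM), Syt15 (0.0351 to 0.509), Stx11 (0.0849 to 0.434), Stx19 (0 to 0.513) and Cplx4, a retinal complexin listed at 0 in 15 of 16 libraries. The 2 members with failed estimates were not tested. Stxbp5l (tomosyn-2) was at 15.6, 13.4, 13.9 and 13.8 FPKM in chow, 12.9, 18.7, 11.0 and 12.1 in HF, 12.8, 10.4, 5.38 and 7.10 in HF_PBS and 12.4, 9.88, 11.6 and 8.47 in HF_5AzaD, with the value of chow 4 marked as failed. Syn3, the third synapsin, was at 2.09 to 8.24 FPKM, with the values of chow 1, HF 5 and HF_5AzaD 3 marked as failed.

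A lesser locus under the same symbol was found for 5 members (Snap47, Snap91, Syt11, Syt12 and Vamp1), and in 3 of these the lesser locus was higher in HF_PBS than in HF while the main one was lower. The lesser Syt12 locus was at 0, 0, 0 and 0 FPKM in HF and 0, 0.184, 0 and 0 in chow, but at 2.14, 1.38, 3.71 and 8.72 in HF_PBS and 2.24, 0.00107, 3.58 and 4.49 in HF_5AzaD (log2 difference 2.90, SE 0.59, adjusted p = 0.00526 for HF_PBS against HF). The main Syt12 locus was lower in value in HF_PBS (13.1 ± 5.52 FPKM) than in HF (22.1 ± 4.82) but did not pass in that comparison. The lesser Snap91 locus was at 27.9, 8.85, 16.6 and 10.9 FPKM in HF and 40.6, 21.5, 27.8 and 53.5 in HF_PBS (log2 difference 1.19, SE 0.35, adjusted p = 0.0246), while the main one fell. The lesser Vamp1 locus was at 8.21, 6.84, 2.27 and 2.90 FPKM in HF and 17.4, 5.61, 10.5 and 21.4 in HF_PBS (log2 difference 1.36, SE 0.53, adjusted p = 0.0744), and neither it nor the main one (log2 difference -0.55, SE 0.48, adjusted p = 0.421) passed. With loci of a symbol summed, Snap91 no longer passed in either comparison of HF_PBS, nor Syt12 in HF_PBS against chow, and whether fragments shifted between loci was not tested. The labels and the files do not say how fragments shared by similar genes or loci were assigned, nor whether the libraries kept the strand.

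Other genes of the release pathway were read from lists beyond the 58. Without HF 8, HF_PBS 3 and HF_PBS 4, 0 genes of these lists passed in HF_PBS against HF, where 7 of all loci did, and 0 in HF_PBS against chow, where 3 did. Of 25 tested genes of the active zone and vesicle priming, 10 passed in HF_PBS against HF, 1 higher and 9 lower. That is 40.0% against 23.9% of all loci, with a median log2 difference of -0.56 against 0.013 over all loci. The lower ones with the smallest p were Unc13a, the priming factor Munc13-1 (19.3 ± 5.16 against 49.6 ± 18.4 FPKM, log2 difference -1.32, adjusted p = 0.00291), Rims4 (-1.46, adjusted p = 0.00387) and Rab3gap2 (-0.56, adjusted p = 0.00485), and Rab3b was higher (0.53, adjusted p = 0.0489). Against chow, 13 passed in HF_PBS (1 higher, 52.0% in all against 28.2% of all loci) and 7 in HF_5AzaD (1 higher, 28% against 16.3%), and HF_5AzaD against HF had 5, all lower (20.0% against 14.2%). In HF_5AzaD, Rims4 was lower than in chow (-1.53, adjusted p = 0.00803) and than in HF (-1.32, adjusted p = 0.0118), Rims3 (-1.79, adjusted p = 0.0241) and Rph3a, a Rab3 effector (-1.05, adjusted p = 0.0261), were lower than in chow, and Ppfia1 (-0.72, adjusted p = 0.0211) and Erc1 (-0.51, adjusted p = 0.0249) than in HF.

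Vesicle endocytosis had 23 tested genes. In HF_PBS against HF 2 were higher and 8 lower (43.5% called, against 23.9% of all loci), and in HF_PBS against chow 2 and 9 (47.8% against 28.2%). In HF_5AzaD against chow 0 were higher and 6 lower (26.1% against 16.3%), and in HF_5AzaD against HF 1 and 5 (26.1% against 14.2%). The clathrin heavy chain gene Cltc rose (0.65, adjusted p = 0.0103), as did Sh3gl3 (0.60, adjusted p = 0.0206), in HF_PBS against HF. The scaffold gene Itsn1 (-0.71, adjusted p = 0.00618), Pacsin1 (-0.77, adjusted p = 0.00665) and Amph, amphiphysin (-1.20, adjusted p = 0.0102), fell in that comparison. In HF_5AzaD against chow the falls with the lowest p were those of Picalm (-0.58, adjusted p = 0.0152), the dynamin gene Dnm3 (-0.76, adjusted p = 0.0159) and Eps15 (-0.84, adjusted p = 0.018).

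The proton pump that fills vesicles had 17 tested subunit or accessory genes, of which 3 rose and 1 fell in HF_PBS against HF. This is 23.5%, near the 23.9% of all loci. Atp6v0e1 (0.60, adjusted p = 0.0128), Atp6v1g1 (0.47, adjusted p = 0.0161) and Atp6v1f (0.40, adjusted p = 0.0276) rose, and Atp6v0e2 (-0.58, adjusted p = 0.00301) fell. HF_PBS against chow had the same counts (28.2% of all loci), HF_5AzaD against chow 0 higher and 1 lower (5.88% against 16.3%), and HF_5AzaD against HF 2 higher and 1 lower (17.6% against 14.2%). Of 15 other vesicle membrane genes 0 were higher and 2 lower in HF_PBS against HF (13.3% against 23.9% of all loci): Dnajc5, the chaperone CSP-alpha (-0.89, adjusted p = 0.00392), and Scamp5 (-1.03, adjusted p = 0.0253). Dnajc5 was also lower in the other 3 comparisons of injected with uninjected rats, at 48.1 ± 3.81 FPKM in HF_5AzaD against 85.0 ± 12.2 in chow.

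Of 14 other SNAREs and disassembly factors, 2 were higher and 1 lower in HF_PBS against HF (21.4% against 23.9% of all loci) and 2 and 2 in HF_PBS against chow (28.6% against 28.2%), both near the background. In HF_5AzaD against chow 1 was higher and 3 lower (28.6% against 16.3%), and in HF_5AzaD against HF 1 and 0 (7.14% against 14.2%). Bet1, an endoplasmic reticulum to Golgi SNARE, rose in all 4 (log2 difference 0.75, adjusted p = 0.00465 in HF_PBS against HF). Use1 rose in HF_PBS against HF (0.56, adjusted p = 0.0346), and the endosomal SNARE gene Vti1a fell against chow in HF_PBS (-0.85, adjusted p = 0.00834) and HF_5AzaD (-0.80, adjusted p = 0.0206). None of the genes on these 5 lists passed for the diet alone or between the 2 injected groups, where 0% of all loci passed.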

How the data were processed

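The authors deposited FPKM for each merged locus in each library, and a status flag beside it. Named in the submitters' processing notes, without versions or roles, are Bowtie, Bowtie2, TopHat, TopHat2, Cuffdiff, Cufflinks and build rn5. The 14824 loci that averaged 1 FPKM or more and had the status OK throughout were tested on log2(FPKM + 0.5) with limma 3.58.1 in R 4.3.3, in 1 fit with a mean per group, 12 residual degrees of freedom and a mean-dependent prior. Fold changes on this scale understate those of low genes. The Benjamini-Hochberg adjustment covered all loci tested, and a gene passed (was called) below 0.05. Adjusted p-values of genes are from this fit, and the fit was tested on simulated data. Another 161 loci with a failed status were left out, and the table held 0 columns from outside the series. Sums, ratios and plots were made with Python 3.11.15. Ratios of 2 genes within a library were compared by two-sided exact permutation tests.

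The members, the lists of other genes and the markers were chosen with earlier results of these data known. Another 2 genes picked by the naming rule are not reported here and are in no count of members. Values per library are given for 9 core release genes. Per comparison, called members by size (up to 10 per direction), or the 3 lowest p per direction where none passed, are named. Only some of these have values per library. From each pathway list up to 3 called genes per direction are named. Other values given per library were chosen after they were seen. Markers searched for neighbouring cells and regions were those of oligodendrocytes, astrocytes, microglia, endothelium, striatum, thalamus, deep and upper cortical layers and interneurons. Their summed levels over the 16 libraries ran from 1753 to 3474 FPKM for astrocytes, 131 to 302 for microglia, 91.9 to 190 for endothelium and 26.6 to 97.9 for thalamus, and Gbx2 and Npy were at 0 in some libraries. Promoters were matched by symbol to RefSeq (47 of 58 members).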

Additional observations from a re-analysis of the deposited data

Results flagged for a closer look

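In 30 genes (the core release genes and those called at least once), 120 groups of 4 libraries were checked for a library far from the other 3, and 5 were found. Chance flags about 1 in 20 groups. Stx1a was at 113 FPKM in HF 8 against 211 to 224 in the other 3 libraries. That library also has the highest striatal marker sum. Syt12 was at 29.3 FPKM in HF 6 against 19.0 to 20.4, and Syt13 at 95.3 in the same library against 52.0 to 55.7. Syt5 was at 194 FPKM in HF 5 against 114 to 124. In HF_5AzaD, Stx5 was at 19.4 FPKM in HF_5AzaD 5 against 21.9 to 22.1.

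A lesser locus of Syt12, outside the main measurement, was at 3.99 ± 3.30 FPKM in HF_PBS and 2.58 ± 1.95 in HF_5AzaD (SD, n = 4 each), while it was listed at 0 in all 4 HF libraries and in 3 of 4 chow libraries (0.184 FPKM in chow 2).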

How the results depend on the processing

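The counts of members called were recomputed under 28 other settings. They stayed at 0 for HF against chow and for HF_5AzaD against HF_PBS in all of them. Under any setting run for the ratios 0 of 21 passed, but a single ratio of 4 against 4 libraries could not pass alone. Of 50 called results followed, 0 were kept in every setting and 0 changed direction. Of 47 results of core genes that did not pass, 2 passed in some setting. In HF_PBS against HF (12 called), the count was 2 with only the 2 groups fitted, 0 without HF 8, HF_PBS 3 and HF_PBS 4 (left out after the data were seen), and 3 to 14 with single libraries left out. In HF_PBS against chow (22 called), it was 0 without those 3 libraries and 9 to 26 with single libraries left out. In HF_5AzaD against chow (13 called), it was 4 with no filter on low values and 0 to 13 with single libraries left out. In HF_5AzaD against HF (3 called), it was 1 with no filter, 6 after quantile normalisation, 0 with only the 2 groups fitted, 6 without those 3 libraries and 0 to 5 with single libraries left out. Leaving libraries out lowers the degrees of freedom, and the cause of the other changes was not tested. With the replicate number as a block the counts were 0, 18, 0 and 0 for these 4 comparisons in the order given. HF_PBS and HF share no number, and HF_5AzaD and chow share only number 3. For these 2 comparisons the block leaves little to compare, and their zeros do not measure stability. HF_PBS and chow share 4 numbers, and HF_5AzaD and HF share 3. In HF_5AzaD against HF, 0 members and 54 of all loci passed with the block. The numbers give no pairing: deviations of same-numbered libraries correlated at -0.164 to 0.0236 between HF_PBS and chow (4 numbers) and at -0.107 to 0.0641 between HF_5AzaD and HF (3 numbers), and 0 of them was the best match of its library. Without read counts, the absolute depth and the counting error of low genes are unknown.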
